A study of Arabidopsis thaliana with 39 samples.

Results

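Col-0 seeds taken after 7 days of secondary dormancy (SD) induction and 24 h of recovery (7d+24h) were compared with Col-0 seeds taken after 3 days of induction (3d). The comparison used 6 of the 39 samples of the series, namely the 3 Col-0 libraries of each time point in the single-seed RNA-seq experiment that also held the dog1-4 mutant. Its members were chosen by the labelled genotype and time point, and within them each seed needed at least 5000 unique molecular identifiers (UMIs) on genes of the nuclear chromosomes. This kept 96 of 96 seeds at 7d+24h and 95 of 96 seeds at 3d, and the UMIs of the kept seeds were summed for each library. A gene entered the test where its UMIs averaged 1 or more over the kept Col-0 seeds, which left 10379 of the 37051 genes listed.

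Both groups were wild-type Col-0 seeds that had been stored dry for at least 6 months to lose primary dormancy. The 7d+24h seeds spent 7 days in darkness at 30°C on wet paper. They then spent 24 h of recovery in the light, for which the study lowered the temperature. The 3d seeds spent 3 days in the same darkness and heat and received no recovery. Longer induction, light and lower temperature therefore came together in the 7d+24h seeds and cannot be told apart from these 6 libraries alone. The dog1-4 seeds, which carry a mutant allele of DOG1, received the same 2 treatments in the same experiment, with 3 libraries each. A separate time course of Col-0 seeds held 3 libraries each at 3d, after 7 days of induction without recovery (7d) and at 7d+24h. The study describes the 3 libraries of a time point in the time course as technical replicates drawn from a single seed pool. For the experiment used here the seed pools behind the libraries are not given in the sources used, so p-values measure the spread between libraries, which may be technical.

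SD is the return of a germinable seed to dormancy under unfavourable conditions. The hormone abscisic acid (ABA) and the protein DELAY OF GERMINATION1 (DOG1) hold a seed dormant, and gibberellin (GA) and light promote germination. A mature Arabidopsis seed carries stored transcripts for seed storage proteins and for late embryogenesis abundant (LEA) proteins, which protect dry cells. In a germinating seed these transcripts decline, ribosomes are made, stored oil is turned into sugar, and expansins loosen the cell walls of the embryo and endosperm. The comparison asks how far the transcriptome of Col-0 seeds in early recovery had moved away from that of seeds under the inducing stress.

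The libraries held 2849149 to 3674197 nuclear UMIs at 7d+24h and 2132485 to 2376493 at 3d, with median depths per seed of 82343 to 113706 UMIs at 7d+24h and of 62194.5 to 72629.5 at 3d. The 10 most abundant genes took 10.4% ± 1.8 of the UMIs at 7d+24h and 31.7% ± 0.89 at 3d (SD, n = 3 each). UMIs outside nuclear protein-coding genes, called unspecific below, made up 12.7% to 13.6% of the libraries at 7d+24h and 12.4% to 13.9% at 3d. Seed markers differed in abundance. The cruciferin gene CRA1 held 57175 to 78838 UMIs per library at 7d+24h and 163864 to 187463 at 3d, and CRB 137 to 209 and 1842 to 2133. The albumin gene SESA1 held 61 to 81 UMIs at 7d+24h and 420 to 639 at 3d. CRC and EM6 were lower at 7d+24h as well. Other seed markers went the other way in these counts, which are not scaled for depth. OLEO1 held 9672 to 12605 UMIs at 7d+24h and 6505 to 7425 at 3d, and PER1 7189 to 9326 and 5527 to 5832. The counts of OLEO2, TIP3;1 and EM1 overlapped between the time points. Of the endosperm genes, EPR1 held 385 to 431 and 416 to 463, and CYP707A2 45 to 84 and 62 to 72. The seed coat genes TT10 and BAN, the root hair gene EXPA7 and the floral genes AP3 and AG held at most 4 UMIs in any library. DELTA-VPE, a protease gene of the inner seed coat, was too low to be tested, with 23, 68 and 48 UMIs at 7d+24h, against 5, 5 and 2 at 3d. Library 1 of the 7d+24h group lay nearest to the 3d group: it was the lowest of its group for 1047 of the 1348 genes that rose and the highest for 605 of the 884 genes that fell.

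Promoter sequence is shown first for the gene groups on which the comparison turns. Each line holds the 250 bases before the annotated start of the gene, read 5′ to 3′ on the coding strand of the RefSeq TAIR10.1 genome, and capitals mark every match to the named motif on either strand. The ribosomal protein gene AT3G11120, whose product is assigned to the L41 family, lies on the + strand behind chr3:3480770-3481019, and its capitals mark the site II element TGGGCC and the telo box AAACCCTA, both in reverse orientation, motifs known from promoters of plant ribosomal protein genes. The 2S albumin genes SESA1 and SESA4 lie on the + strand behind chr4:13607079-13607328 and chr4:13613346-13613595, and their capitals mark the RY element CATGCA of seed maturation genes. The LEA gene EM6 lies on the - strand behind chr2:16780369-16780618 and the chalcone synthase gene CHS on the + strand behind chr5:4488226-4488475, and their capitals mark the G-box CACGTG, which is bound by ABA-responsive bZIP factors and by light-signalling factors such as HY5.
AT3G11120: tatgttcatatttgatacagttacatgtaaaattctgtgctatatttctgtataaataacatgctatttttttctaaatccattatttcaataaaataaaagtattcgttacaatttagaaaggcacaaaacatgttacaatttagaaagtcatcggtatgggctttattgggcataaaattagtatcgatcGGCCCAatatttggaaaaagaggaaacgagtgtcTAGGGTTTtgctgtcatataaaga
SESA1: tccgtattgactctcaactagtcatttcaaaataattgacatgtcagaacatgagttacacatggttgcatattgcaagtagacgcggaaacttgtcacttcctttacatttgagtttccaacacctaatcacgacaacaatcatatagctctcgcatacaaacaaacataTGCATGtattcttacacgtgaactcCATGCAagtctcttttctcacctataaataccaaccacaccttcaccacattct
SESA4: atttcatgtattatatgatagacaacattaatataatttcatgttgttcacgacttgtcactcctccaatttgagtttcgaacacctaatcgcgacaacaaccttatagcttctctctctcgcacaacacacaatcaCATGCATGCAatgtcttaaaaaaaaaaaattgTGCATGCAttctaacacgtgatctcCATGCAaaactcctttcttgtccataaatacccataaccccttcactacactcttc
EM6: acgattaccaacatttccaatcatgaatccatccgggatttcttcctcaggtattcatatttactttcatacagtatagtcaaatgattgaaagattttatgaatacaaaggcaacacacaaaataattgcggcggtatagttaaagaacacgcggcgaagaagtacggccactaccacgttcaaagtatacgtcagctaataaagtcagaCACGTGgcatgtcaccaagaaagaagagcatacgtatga
CHS: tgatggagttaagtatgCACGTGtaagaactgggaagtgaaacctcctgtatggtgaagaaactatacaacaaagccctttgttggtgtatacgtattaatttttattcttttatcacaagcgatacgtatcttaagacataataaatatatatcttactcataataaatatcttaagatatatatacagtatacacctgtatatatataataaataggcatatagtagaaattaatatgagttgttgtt

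These promoters were picked as the member of each group, or the 2 members for the storage genes, with the largest change that held its motif in a window clear of other genes. Levels are given as CPM, the UMIs of a gene per 1000000 UMIs of the library total over tested genes, scaled by the trimmed mean of M values (TMM), in the order of libraries 1, 2 and 3. Every transcript gives a single 3′ tag, so the levels need no correction for gene length. AT3G11120 stood at 162, 190.5 and 241 CPM at 7d+24h, against 31.3, 45.1 and 27.3 CPM at 3d (log2 fold change 2.51 ± 0.28, adjusted p = 2.66e-05). SESA1 stood at 19.4, 19.6 and 18.6 CPM at 7d+24h, against 257, 356 and 273 CPM at 3d (log2 fold change -3.94 ± 0.29, adjusted p = 1.87e-06). SESA4 stood at 12.1, 5.81 and 7.88 CPM at 7d+24h, against 70.5, 70.8 and 109.7 CPM at 3d (log2 fold change -3.30 ± 0.33, adjusted p = 1.47e-05). EM6 and CHS are described with their groups below, and in each of the 5 genes the libraries of the 2 time points did not overlap.

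In the edgeR quasi-likelihood test with Benjamini-Hochberg adjustment, 1348 genes were higher at 7d+24h (13.0% of the genes tested) and 884 were lower (8.52%) where the adjusted p had to be below 0.05 and the absolute log2 fold change above 1. These genes are said below to have risen or fallen. In 33 of these 2232 genes the libraries of the time points overlapped. The libraries did not overlap in 61.4% of all genes tested, so a gap between the groups alone sets few genes apart. The median log2 fold change over all genes was 0.00 by TMM and 0.61 with library totals and no composition factor, with which 3172 genes rose and 278 fell. Fold changes and CPM below are therefore relative to the median gene, except in fits with no composition factor. Shares of UMIs and values of single seeds are parts of the nuclear UMIs and carry no such factor. A further fit held only the 595 genes with little correlation to unspecific UMIs. Its TMM was taken over genes whose median change here was -1.52, and their changes moved up by a median of 1.62. A log2 fold change is given with its standard error, or alone in parentheses behind the gene.

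**Figure D1:**
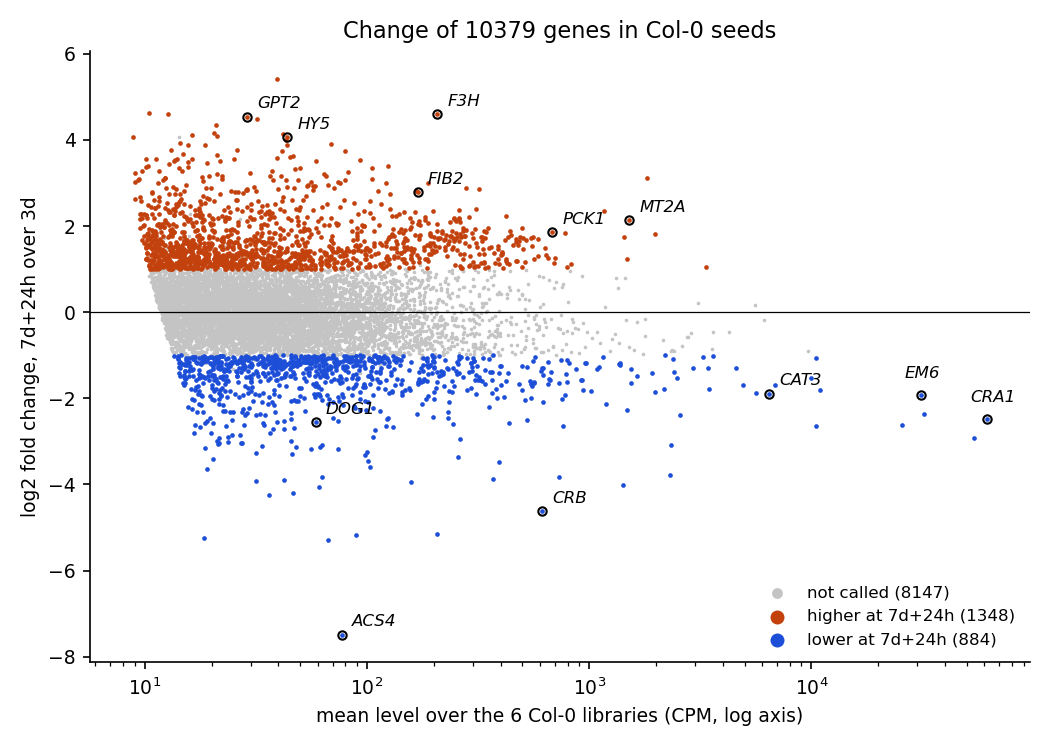
The log2 fold change of each of the 10379 genes (7d+24h over 3d, vertical axis) is plotted against its mean level in CPM over the 6 libraries (log axis), with the 1348 genes that rose and the 884 that fell in colour and 12 genes labelled. ACS4 lies lowest at -7.49, and CRA1 and EM6 are the labelled genes at the far right that fell.

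The 10 largest rises were taken among genes whose libraries did not overlap between the time points, so that gap is built in. They spanned several functions. AT1G28400, annotated as a GATA zinc finger protein, stood at 38.9, 106 and 86.4 CPM at 7d+24h, against 1.84, 1.11 and 2.37 CPM at 3d (log2 fold change 5.43 ± 0.97, adjusted p = 0.000586). GPT2, a plastid transporter of glucose 6-phosphate, stood at 21.4, 54.7 and 89.6 CPM at 7d+24h, against 2.45, 2.23 and 2.37 CPM at 3d (log2 fold change 4.54 ± 0.72, adjusted p = 0.000275). The expansin EXPA4 stood at 20.4, 81.3 and 82.5 CPM at 7d+24h, against 2.45, 2.79 and 2.97 CPM at 3d (log2 fold change 4.48 ± 0.86, adjusted p = 0.000974). In these 3 genes library 1 was the lowest of the 7d+24h group. The others were F3H and ELIP1, described below, the cytochrome P450 gene CYP71B26 (4.16), the lipase-like gene AT5G55050 (4.11), AT1G12805 (4.34), AT1G65500 and the glutathione S-transferase gene GSTU11. The last pair rested on few 3d counts: AT1G65500 had 283 UMIs in all 7d+24h libraries together and 5 in all 3d libraries, a ratio of 26.1 after division by the TMM-scaled library totals, with an exact binomial 95% interval of 11.1 to 81.1. GSTU11 had 226 UMIs at 7d+24h and 4 at 3d, a ratio of 26.1 by the same scaling with an interval of 10.0 to 96.5, and both intervals cover counting error only.

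The 10 largest falls were taken by the same rule, so their libraries do not overlap by choice. The largest was that of ACS4, which makes the precursor of ethylene. It stood at 0.319, 0.726 and 1.31 CPM at 7d+24h, against 188, 160.0 and 111 CPM at 3d (log2 fold change -7.49 ± 0.61, adjusted p = 4.01e-06). AT1G72060, annotated as a serine-type endopeptidase inhibitor, stood at 4.14, 3.63 and 2.10 CPM at 7d+24h, against 156, 133 and 101 CPM at 3d (-5.30), and AT1G14940 of the polyketide cyclase family at 5.10, 4.36 and 4.99 CPM at 7d+24h, against 176, 181 and 165 CPM at 3d (-5.17). Seed storage proteins were also among the 10, with the cupin gene AT1G03890 (-5.14) and the cruciferin gene CRB (-4.63), as were GASA1 (-4.25) and GASA2 (-4.01), members of a family of GA-regulated peptides. GASA2 was abundant at 193, 182 and 121 CPM at 7d+24h, against 3051, 2629 and 2302 CPM at 3d. The remaining genes were AT3G55240 (-5.25), AT3G45730 (-4.20) and AT1G72645 (-4.06).

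Of 19 tested genes of dormancy and ABA signalling (of 23 listed), 2 rose and 4 fell, with a median log2 fold change of -0.38 that turned to 0.22 with no composition factor. DOG1 (AT5G45830) stood at 13.4, 17.2 and 20.2 CPM at 7d+24h, against 57.0, 106 and 139 CPM at 3d (log2 fold change -2.56 ± 0.29, adjusted p = 2.65e-05). Every 7d+24h library held less than the lowest 3d library, although the 3d libraries differed among themselves, and in the fit of 595 genes the change no longer passed (-0.93, adjusted p = 0.0706). SOM, a repressor of germination in the dark downstream of PIF1, fell to 345, 367 and 342 CPM at 7d+24h, against 752, 822 and 733 CPM at 3d (log2 fold change -1.13 ± 0.13, adjusted p = 4.11e-05). ABF4, an ABA-responsive bZIP factor, fell (log2 fold change -1.34 ± 0.22, adjusted p = 0.000308), as did the ABA-induced phosphatase gene HAI2 (log2 fold change -1.24 ± 0.25, adjusted p = 0.0012). With no composition factor the changes were -0.53 for SOM, -0.73 for ABF4 and -0.66 for HAI2, so none of these 3 passed the fold threshold. ABI4, a transcription factor of the ABA response, rose to 45.6, 97.3 and 108 CPM at 7d+24h, against 18.4, 34.6 and 44.5 CPM at 3d (log2 fold change 1.36 ± 0.33, adjusted p = 0.00387). ABI1, a phosphatase that blocks ABA signalling, rose less (log2 fold change 1.07 ± 0.31, adjusted p = 0.0106). The main seed regulators did not pass: ABI3 and ABI5 had log2 fold changes of -0.38 and -0.86, and RDO5 ranged from 217 to 377 CPM at 7d+24h and from 169.8 to 713 CPM at 3d. Of 4 tested genes of ABA synthesis and breakdown, CYP707A2, an ABA 8′-hydroxylase, fell (log2 fold change -1.10 ± 0.15, adjusted p = 0.00011; -0.50 with no composition factor), and NCED9 and ABA1 of ABA synthesis had log2 fold changes of -0.95 and -0.79.

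Of 13 tested GA genes (of 22 listed), 2 rose and 5 fell, with a median of -0.92. GA20OX3, which makes the precursors of active GA, stood at 79.7, 135 and 164 CPM at 7d+24h, against 438, 587 and 719 CPM at 3d (log2 fold change -2.20 ± 0.31, adjusted p = 0.000119). GA2OX2, which inactivates GA, stood at 7.97, 24.7 and 23.9 CPM at 7d+24h, against 71.7, 63.0 and 50.4 CPM at 3d (log2 fold change -1.68 ± 0.30, adjusted p = 0.000554). For both genes the libraries of the 2 time points did not overlap, and neither change passed in the fit of 595 genes (-0.55 and -0.03). The receptor genes GID1A and GID1C fell by 1.30 and 1.14 on the log2 scale, but not past the threshold with no composition factor (-0.70 and -0.53). The DELLA gene RGL3 rose (log2 fold change 1.25 ± 0.34, adjusted p = 0.00756), whereas RGL2, the DELLA repressor best known from seeds, had 160.3, 181 and 189.9 CPM at 7d+24h, against 154, 158 and 119 CPM at 3d (log2 fold change 0.30 ± 0.14, adjusted p = 0.0985). GASA6, a GA-induced peptide gene known from germination, stood at 25.2, 107 and 141 CPM at 7d+24h, against 15.3, 10.6 and 1.19 CPM at 3d (log2 fold change 3.34 ± 1.01, adjusted p = 0.0142). Its level at 7d+24h rested on libraries 2 and 3, and its change no longer passed without the third 3d library (2.82, adjusted p = 0.055).

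Transcripts tied to darkness and starvation were lower at 7d+24h. Of 8 tested members 5 fell and none rose (median -1.73). PHYA, the phytochrome that accumulates in darkness, stood at 224, 227 and 213 CPM at 7d+24h, against 995, 803 and 834 CPM at 3d (log2 fold change -1.99 ± 0.17, adjusted p = 4.38e-06). The dark-inducible gene DIN2 stood at 7.65, 4.84 and 4.47 CPM at 7d+24h, against 32.5, 18.9 and 25.5 CPM at 3d, and SEN1 at 18.8, 14.3 and 7.36 CPM at 7d+24h, against 79.7, 56.8 and 39.1 CPM at 3d. PIF6, a phytochrome-interacting factor, and ASN1, an asparagine synthetase gene induced in the dark, fell by 1.86 and 1.61 on the log2 scale. In each of these genes the time points did not overlap. DRM1, the most abundant member, had 957, 783 and 711 CPM at 7d+24h, against 1357, 1227 and 1112 CPM at 3d (log2 fold change -0.59) and did not pass the fold threshold. Among 9 tested genes of ethylene and low oxygen, ACS4 and ERF72 (also called RAP2.3) fell and RAP2.2 rose. ERF72 and RAP2.2 belong to the ERF-VII transcription factors of oxygen sensing. RAP2.2 stood at 329, 347 and 345 CPM at 7d+24h, against 155, 168 and 152 CPM at 3d (log2 fold change 1.10 ± 0.12, adjusted p = 1.96e-05). ERF72 stood at 2648, 2335 and 2171 CPM at 7d+24h, against 5240, 4466 and 4680 CPM at 3d (log2 fold change -1.01 ± 0.20, adjusted p = 0.001) and changed by -0.40 with no composition factor. ADH1 and PDC2 of fermentation had log2 fold changes of -0.50 and 0.10 and did not pass.

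Genes of the flavonoid pathway gave the largest list median of the rises, 3.82 over 4 tested members (of 16 listed), of which 3 rose. The filter on low values averaged over both time points, so a gene scarce at 3d could enter through its level at 7d+24h. CHS and TT7 held UMIs in only 28 and 24 of 95 seeds at 3d. A high median over the members that passed is therefore partly built in, and it does not describe the list as a whole. F3H, flavanone 3-hydroxylase, stood at 459, 369 and 365 CPM at 7d+24h, against 17.8, 17.8 and 13.6 CPM at 3d (log2 fold change 4.59 ± 0.47, adjusted p = 1.60e-05). CHS, the entry enzyme, whose promoter with its G-box is printed above, stood at 100.4, 70.2 and 60.7 CPM at 7d+24h, against 7.97, 4.46 and 4.74 CPM at 3d (log2 fold change 3.75 ± 0.50, adjusted p = 8.38e-05). TT7, flavonoid 3′-hydroxylase, stood at 75.9, 73.3 and 96.9 CPM at 7d+24h, against 6.13, 2.79 and 7.71 CPM at 3d (log2 fold change 3.89 ± 0.44, adjusted p = 2.90e-05). In all 3 genes the lowest 7d+24h library lay far above the highest 3d library. C4H, which serves the general phenylpropanoid pathway, had a log2 fold change of 0.07. The list as a whole took 0.0714% of the UMIs at 7d+24h and 0.00718% at 3d.

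Of 16 tested genes of light response and the clock, 5 rose and 5 fell (median -0.24, and 0.37 with no composition factor). HY5, the bZIP factor that drives light responses, stood at 96.3, 85.5 and 66.2 CPM at 7d+24h, against 6.13, 6.13 and 2.37 CPM at 3d (log2 fold change 4.07 ± 0.44, adjusted p = 2.28e-05), and its relative HYH at 21.0, 23.0 and 21.8 CPM at 7d+24h, against 1.84, 4.46 and 2.37 CPM at 3d (log2 fold change 2.89 ± 0.43, adjusted p = 0.000172). ELIP1, an early light-induced protein of the chloroplast, stood at 75.2, 77.2 and 85.9 CPM at 7d+24h, against 3.68, 6.13 and 3.56 CPM at 3d (log2 fold change 4.13 ± 0.30, adjusted p = 1.87e-06). ELF4 of the evening complex of the clock stood at 252, 335 and 415 CPM at 7d+24h, against 28.2, 48.5 and 47.4 CPM at 3d (log2 fold change 3.01 ± 0.30, adjusted p = 1.56e-05). These light and clock genes were separated between the time points in every library. PRR5, another clock gene, also rose, but its libraries overlapped: it stood at 16.3, 46.7 and 86.4 CPM at 7d+24h, against 3.68, 14.5 and 23.7 CPM at 3d (log2 fold change 1.83 ± 0.66, adjusted p = 0.033), and it lost its call in 4 of the 6 fits that left out a library (adjusted p = 0.0575 to 0.161). FHL, which carries phytochrome A into the nucleus, fell to 7.65, 9.68 and 11.8 CPM at 7d+24h, against 99.3, 85.8 and 72.4 CPM at 3d (log2 fold change -3.13 ± 0.18, adjusted p = 6.04e-07). LNK2 (log2 fold change -2.52 ± 0.16, adjusted p = 8.24e-07), RVE8 (-1.42), PRR7 (-1.08) and PHYB (-1.05) fell as well, the last 3 not past the fold threshold with no composition factor (-0.81, -0.47 and -0.43). TOC1 (-0.45) and GI (-0.03) did not pass.

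No tested gene of light harvesting, Rubisco or chlorophyll synthesis passed the test as higher at 7d+24h. Of 25 listed genes of light harvesting and Rubisco, 4 passed the filter on low values, and LHCB4.2 fell to 19.4, 16.7 and 15.0 CPM at 7d+24h, against 226, 197 and 133 CPM at 3d (log2 fold change -3.45 ± 0.23, adjusted p = 1.15e-06). RBCS1A, a Rubisco small subunit gene, had 100.1, 113 and 106 CPM at 7d+24h, against 50.3, 45.7 and 30.8 CPM at 3d and did not pass (log2 fold change 1.33 ± 1.15, adjusted p = 0.352), although its libraries did not overlap, and it passed as higher with the Col-0 libraries fitted alone (1.33, adjusted p = 0.000107). LHCB4.1, the most abundant member, had 90.2, 62.2 and 53.6 CPM at 7d+24h, against 172, 149.9 and 158 CPM at 3d and did not pass either (log2 fold change -1.22 ± 0.51, adjusted p = 0.0604), but passed as lower in 5 alternative fits, with the replicate number as a block (-1.21, adjusted p = 0.0454), without a gene filter, with DESeq2, with Col-0 libraries alone and with the filter on shares (adjusted p = 0.000309 to 0.0461). CAO of chlorophyll synthesis fell (log2 fold change -1.40 ± 0.21, adjusted p = 0.000174; -0.80 with no composition factor), and CHLM and GSA1 did not pass, although GSA1 passed as higher with no composition factor (1.21) and with seeds thinned to 5000 UMIs (2.05).

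Seed storage and oil body transcripts took a much smaller share of the library at 7d+24h. The 13 tested members took 5.04% ± 0.89 of the UMIs at 7d+24h and 19.3% ± 0.41 at 3d (SD, n = 3 each), and 8 of them fell and 1 rose (median log2 fold change -2.47). Fewer cells of a type and less RNA per cell cannot be told apart in such sums. CRA1, a 12S globulin, stood at 22426, 19085 and 15019 CPM at 7d+24h, against 114910, 101400 and 97187 CPM at 3d (log2 fold change -2.47 ± 0.31, adjusted p = 5.98e-05). The globulin CRC stood at 14839, 12968 and 9881 CPM at 7d+24h, against 101020, 93927 and 92255 CPM at 3d, and the 2S albumin SESA5 had a log2 fold change of -2.62. CRB, another globulin, fell by 4.63 on the log2 scale, with 56.1, 50.6 and 36.0 CPM at 7d+24h, against 1229, 1027 and 1265 CPM at 3d. The members did not move alike: SESA1, SESA2, SESA4 and SESA5 fell, while SESA3 had 521, 399 and 356 CPM at 7d+24h, against 459.7, 421 and 500.0 CPM at 3d (-0.11), with overlapping libraries. The oleosin gene OLEO4 fell by 1.85 on the log2 scale, while OLEO1 and OLEO2 had log2 fold changes of -0.46 and -0.88 and stayed under the fold threshold, and OLEO1 would turn positive with no composition factor. CLO1, a caleosin of the oil body, rose to 96.3, 98.8 and 75.9 CPM at 7d+24h, against 26.4, 39.6 and 33.2 CPM at 3d (log2 fold change 1.45 ± 0.19, adjusted p = 7.26e-05). The RY element CATGCA, marked in the SESA1 and SESA4 promoters, was present in 12 of the 13 promoters of the list (92.3%) and in 6.61% of the 10373 promoters read.

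LEA transcripts took 3.62% ± 0.65 of the UMIs at 7d+24h and 6.20% ± 0.43 at 3d. EM6 alone took 1.46% at 7d+24h and 3.69% at 3d, so most of the drop in the list share was that of 1 gene. Of 12 tested LEA genes, 2 fell and 1 rose (median -0.81). EM6 stood at 16200, 12631 and 10419 CPM at 7d+24h, against 55516, 49639 and 42903 CPM at 3d (log2 fold change -1.92 ± 0.34, adjusted p = 0.000563), and EM1 fell as well (log2 fold change -1.30 ± 0.22, adjusted p = 0.000439; -0.69 with no composition factor). RAB18, a dehydrin, had 8614, 6106 and 5432 CPM at 7d+24h, against 14611, 12964 and 9977 CPM at 3d and did not pass the fold threshold (-0.90). Only AT3G02480 among the 12 genes rose (log2 fold change 1.18 ± 0.29, adjusted p = 0.0044). The G-box CACGTG, marked in the EM6 promoter, was present in 7 of the 12 LEA promoters, against 8.64% of all promoters read, 7.13% of those of genes that rose and 13.9% of those of genes that fell.

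Of 12 tested heat shock genes 6 fell and none rose (median -0.98), and the list took 0.322% of the UMIs at 7d+24h and 0.534% at 3d. HSP17.4, a cytosolic small heat shock protein, stood at 551, 399.9 and 378 CPM at 7d+24h, against 2068, 1846 and 1864 CPM at 3d (log2 fold change -2.12 ± 0.27, adjusted p = 6.83e-05). The mitochondrial HSP23.6-MITO and the chaperone HSP90.1 fell by 1.85 and 1.62 on the log2 scale. HSP17.6A (-1.40), HSP101 (-1.15) and HSP22.0 (-1.01) fell by less, and with no composition factor these 3 did not pass (-0.79, -0.54 and -0.42). In the fit of 595 genes none of the 5 heat shock genes it held fell, and with no composition factor 3 of the 12 fell and 1 rose. HSP70, a general chaperone, had 594, 551 and 559 CPM at 7d+24h, against 505, 412 and 361 CPM at 3d and did not pass (0.41), but rose with no composition factor (1.03).

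**Figure D2:**
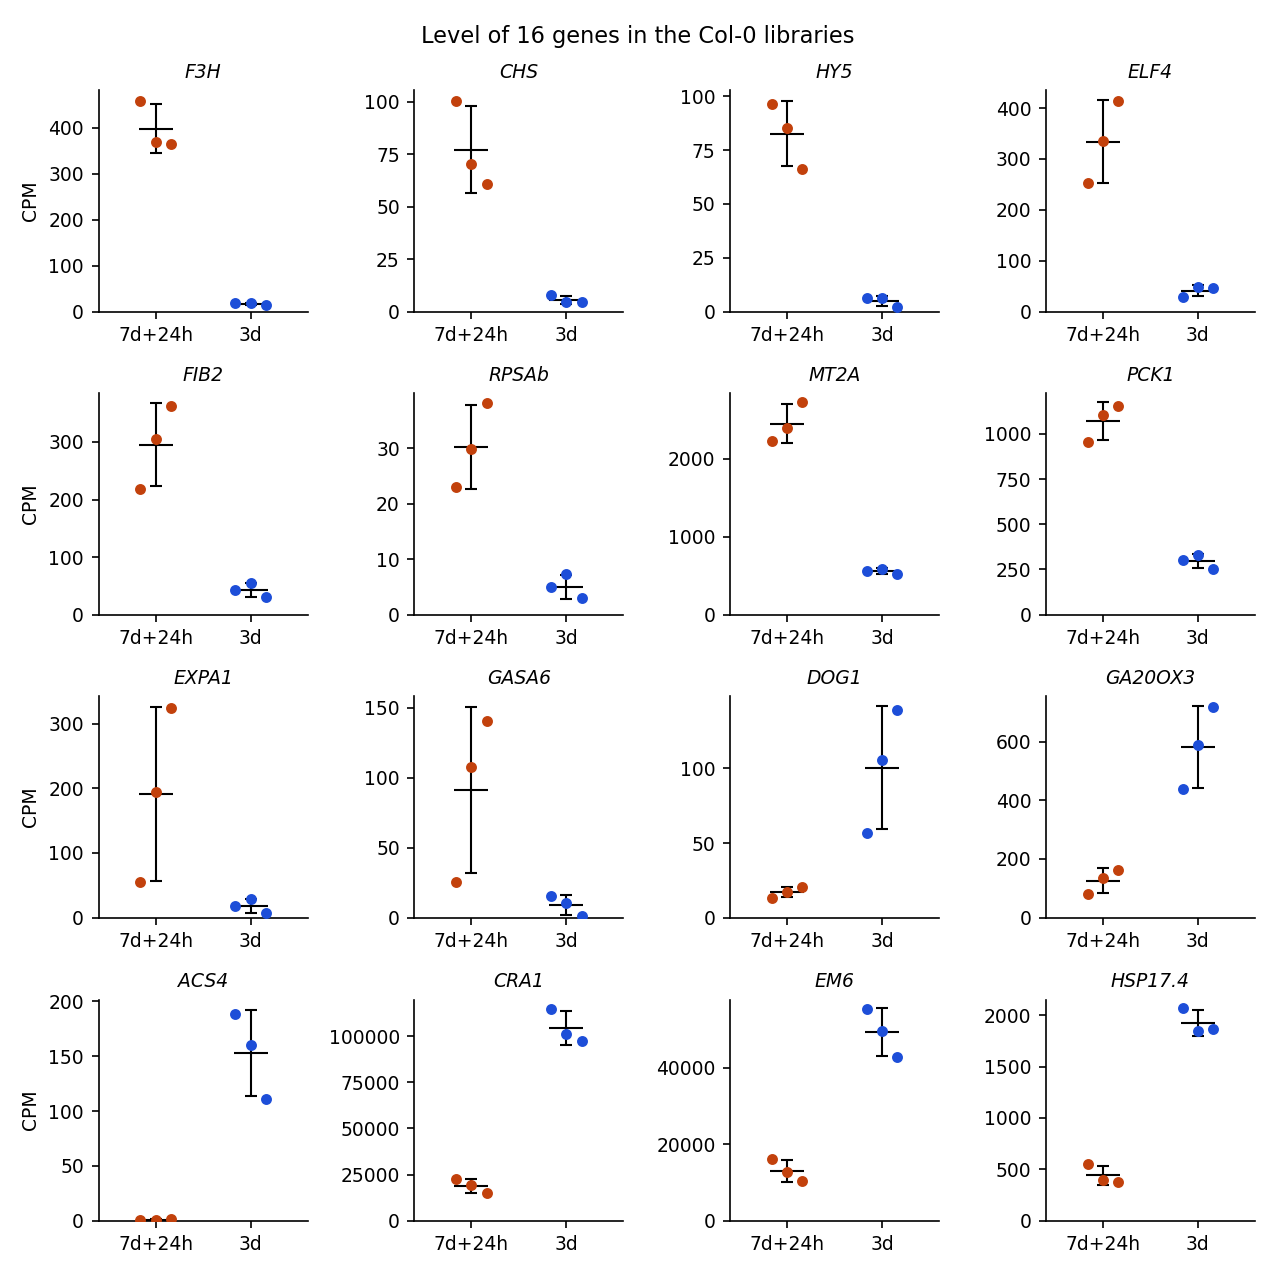
The level of 16 genes in CPM (vertical axes) is shown for the 3 libraries at 7d+24h (left in each panel) and the 3 libraries at 3d (right), with points for libraries and bars for mean ± SD. DOG1 lies between 13.4 and 20.2 CPM at 7d+24h and between 57.0 and 139 CPM at 3d, and EXPA1 and GASA6 show the widest spread among the 7d+24h libraries relative to their mean.

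Of 15 tested genes that turn stored oil into sugar, 2 rose and 1 fell. These shares, 13.3% and 6.67%, were near the 13.0% and 8.52% of all genes, and 8 of the 15 had a positive change at an adjusted p under 0.05, against 26.6% of all genes. The list took 1.24% of the UMIs at 7d+24h and 0.700% at 3d. PCK1, phosphoenolpyruvate carboxykinase, which commits carbon from oil to sugar, stood at 953, 1105 and 1157 CPM at 7d+24h, against 304, 328 and 254 CPM at 3d (log2 fold change 1.86 ± 0.16, adjusted p = 4.96e-06). MFP2 of peroxisomal β-oxidation stood at 381, 468 and 538 CPM at 7d+24h, against 144, 154 and 122 CPM at 3d (log2 fold change 1.72 ± 0.15, adjusted p = 6.64e-06). The glyoxylate cycle gene MLS had a log2 fold change of 0.80 (adjusted p = 0.000548) and stayed under the fold threshold except with no composition factor (1.41), whereas ICL, the most abundant member, stood at 6089, 5776 and 5290 CPM at 7d+24h, against 6941, 6471 and 5946 CPM at 3d (log2 fold change -0.17 ± 0.16, adjusted p = 0.382), with overlapping libraries. ACX1, an acyl-CoA oxidase, fell (log2 fold change -1.04 ± 0.14, adjusted p = 7.63e-05; -0.43 with no composition factor).

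Antioxidant and metal-binding genes moved both ways, with 4 of 12 up and 3 down. MT2A, a metallothionein, stood at 2235, 2391 and 2730 CPM at 7d+24h, against 561, 592 and 522 CPM at 3d (log2 fold change 2.13 ± 0.25, adjusted p = 3.35e-05), whereas the seed metallothionein MT4B stood at 2875, 2416 and 1930 CPM at 7d+24h, against 9848, 8817 and 7792 CPM at 3d (log2 fold change -1.87 ± 0.26, adjusted p = 0.000111). MT4B and its relative MT4A are close copies, and reads that fit both equally were not counted. CAT3, a catalase, fell to 3111, 2733 and 2336 CPM at 7d+24h, against 10732, 10274 and 9360 CPM at 3d (log2 fold change -1.89 ± 0.19, adjusted p = 1.45e-05), while CAT2 had a log2 fold change of 0.12. MT2B (log2 fold change 1.23 ± 0.41, adjusted p = 0.0239) and the superoxide dismutase gene CSD1 (log2 fold change 1.16 ± 0.38, adjusted p = 0.0203) rose, and the cysteine protease inhibitor gene CYS2 fell (log2 fold change -1.46 ± 0.16, adjusted p = 2.74e-05; -0.85 with no composition factor). PER1, a peroxiredoxin of dry seeds, had 2585, 2258 and 1888 CPM at 7d+24h, against 3388, 3170 and 3459 CPM at 3d and stayed under the fold threshold (-0.57). APX1 passed narrowly (log2 fold change 2.17 ± 0.86, adjusted p = 0.0491) and lost its call in 5 of the 6 fits that left out a library. Among 5 tested water channels, PIP1;4 of the plasma membrane stood at 59.3, 50.4 and 54.4 CPM at 7d+24h, against 4.29, 6.69 and 10.7 CPM at 3d (log2 fold change 2.91 ± 0.41, adjusted p = 0.000117) and the seed vacuole channel BETA-TIP at 1015, 874 and 577 CPM at 7d+24h, against 4699, 4499 and 3709 CPM at 3d (log2 fold change -2.39 ± 0.32, adjusted p = 8.84e-05). TIP3;1, the most abundant member and also of the seed vacuole, had 3128, 2551 and 1932 CPM at 7d+24h, against 4988, 4636 and 4206 CPM at 3d and stayed under the fold threshold (log2 fold change -0.86 ± 0.25, adjusted p = 0.0104).

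Translation genes formed the largest group that rose. Of 357 tested genes annotated as ribosomal proteins or translation factors (of 427 listed), 184 rose and none fell (median 1.05), against 13.0% and 8.52% of all genes. By the same test, 260 had a positive and 14 a negative change at an adjusted p under 0.05. They took 8.14%, 9.52% and 11.3% of the UMIs at 7d+24h, against 3.03%, 3.27% and 2.71% at 3d. The difference of 6.64 percentage points gave p = 0.1 in a two-sided exact permutation test, the smallest p that 3 against 3 libraries allow. Ribosomal proteins not named for an organelle carried most of it, with 165 of 266 up (median 1.24), against 6 of 49 initiation factors and 9 of 27 elongation factors. RPL10B (3.11), the L31e gene AT2G19740 (2.84) and RPSAb (2.57) rose most. With every seed thinned to 5000 UMIs RPL10B no longer passed the edgeR test (0.92, adjusted p = 0.66). RPSAb of the small subunit stood at 23.0, 29.8 and 38.1 CPM at 7d+24h, against 4.90, 7.25 and 2.97 CPM at 3d and AT2G19740 at 70.5, 105 and 126 CPM at 7d+24h, against 11.6, 23.4 and 6.52 CPM at 3d. Many of these genes have close copies, and reads that fit more than 1 copy were left out of the counts, so the split among copies is uncertain.

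The site II element TGGGCC, marked in the promoter of AT3G11120, was found in 103 of the 184 translation genes that rose (56.0%) and in 56 of the 173 that did not (32.4%), against 21.2% of all promoters read. The telo box AAACCCTA was found in 16.3% and 8.67% of these groups, against 4.03% of all. Among genes that rose without being translation genes, 23.0% held TGGGCC. These shares describe letters in a window of 250 bases and not binding.

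Nucleolar genes of ribosome biogenesis rose alongside, 6 of 11 tested and none in the other direction, with positive changes at an adjusted p under 0.05 in 10. FIB2, a fibrillarin of rRNA processing, stood at 218, 305 and 362 CPM at 7d+24h, against 42.9, 55.2 and 30.2 CPM at 3d (log2 fold change 2.78 ± 0.33, adjusted p = 4.46e-05). NOP56 stood at 215, 277 and 303 CPM at 7d+24h, against 85.2, 76.4 and 73.0 CPM at 3d (log2 fold change 1.76 ± 0.16, adjusted p = 9.31e-06), and the NOP56-like genes AT5G27120 (1.44) and AT3G05060 (1.16), the Brix domain gene AT1G52930 (1.30) and the main nucleolin gene NUC-L1 (1.11) rose too. The other fibrillarin gene, FIB1, stayed under the fold threshold (0.67) except with no composition factor (1.28). TGGGCC was present in 7 of the 11 promoters. The histone list, which also holds a histone-modifying enzyme and is no measure of DNA replication, showed no such rise. Of its 32 tested members 1 rose and 2 fell (median -0.24, and 0.36 with no composition factor). HTA8, a histone H2A, was the member that rose, with 44.0, 42.8 and 51.5 CPM at 7d+24h, against 7.36, 6.69 and 5.93 CPM at 3d (log2 fold change 2.79 ± 0.32, adjusted p = 2.98e-05). AT1G08170 (-1.43) and AT3G07565, annotated as a histone H2A deubiquitinase (-1.11), fell, and both stayed under the fold threshold with no composition factor (-0.83 and -0.50). HIS1-3, a stress-induced linker histone and the most abundant member, had 878, 738 and 650.4 CPM at 7d+24h, against 924, 966 and 1035 CPM at 3d and did not pass (log2 fold change -0.37 ± 0.17, adjusted p = 0.0888).

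**Figure D3:**
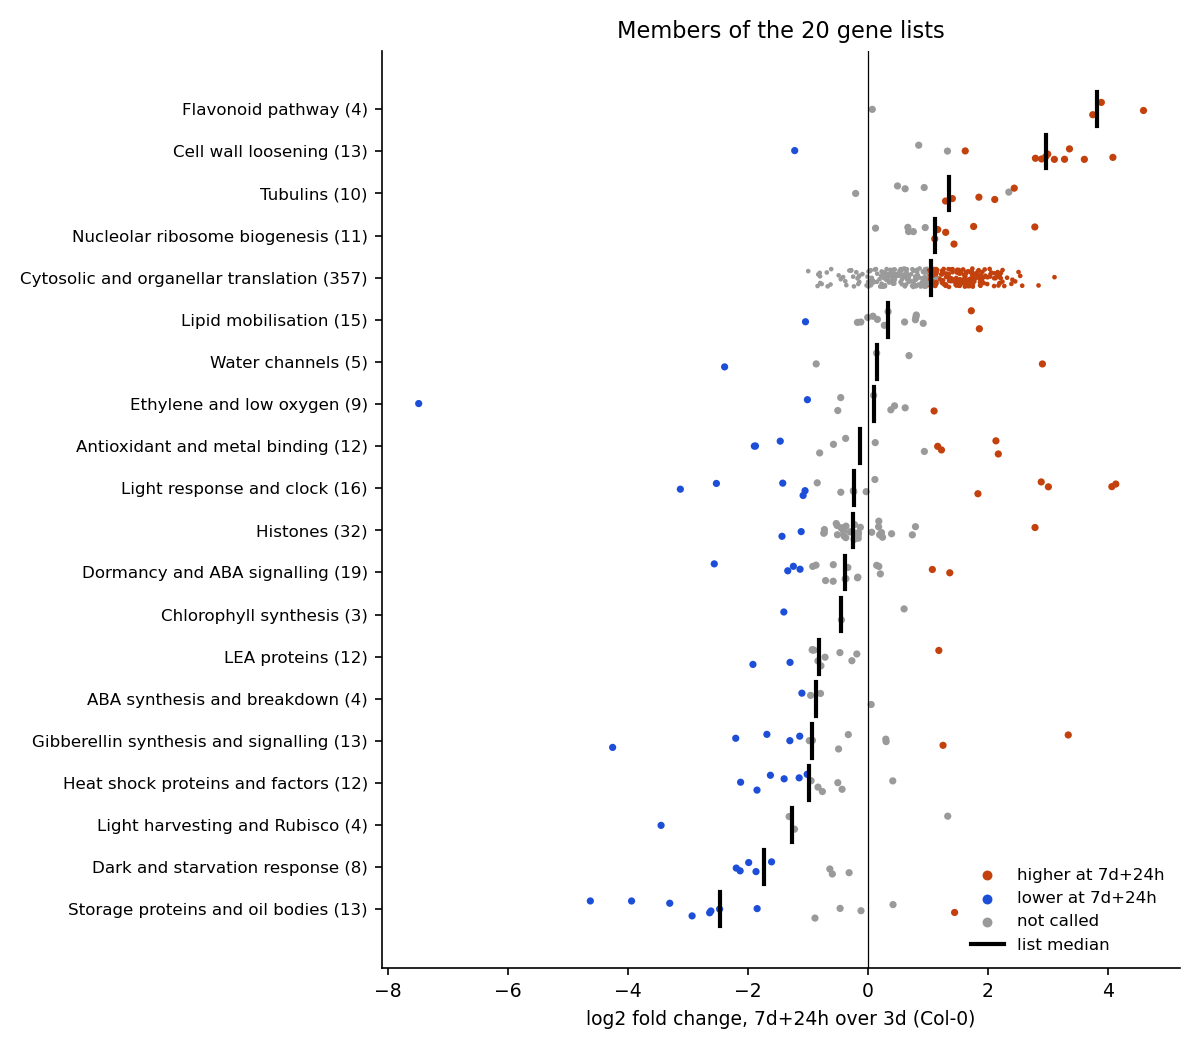
Each row is a gene list and each point a tested member, placed by its log2 fold change (7d+24h over 3d, horizontal axis), with a black bar at the list median. The bars of the flavonoid pathway (3.82) and cell wall loosening (2.96) lie farthest to the right and that of storage proteins (-2.47) farthest to the left. Listed members that failed the filter on low values are not shown.

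Cell wall loosening had the second highest median, 2.96, with 10 of 13 tested members (of 19 listed) up and 1 down. The limit given for the flavonoid median holds here too, since EXPA8 and EXPA9 held UMIs in only 12 and 15 of 95 seeds at 3d. Expansins loosen the wall for growth, and EXPA1 stood at 55.5, 195 and 324 CPM at 7d+24h, against 18.4, 29.5 and 7.71 CPM at 3d (log2 fold change 3.36 ± 0.82, adjusted p = 0.00443). EXPA9 stood at 20.7, 99.7 and 129.8 CPM at 7d+24h, against 10.4, 10.0 and 0 CPM at 3d (log2 fold change 3.61 ± 0.84, adjusted p = 0.00323), and EXPA8 at 10.2, 41.6 and 68.3 CPM at 7d+24h, against 1.84, 2.23 and 2.97 CPM at 3d (log2 fold change 4.08 ± 0.84, adjusted p = 0.0015). In these genes library 1 held much less than libraries 2 and 3 of the 7d+24h group, yet more than any 3d library. EXPA2 showed the same order at 78.4, 281 and 294 CPM at 7d+24h, against 34.9, 39.6 and 7.12 CPM at 3d, as did EXPA3 at 53.6, 139 and 163 CPM at 7d+24h, against 17.2, 18.9 and 9.49 CPM at 3d. EXPA10 (3.28), EXPA15 (3.11), EXPA20 (2.90) and the xyloglucan-modifying gene XTH31 (2.79) rose too. MAN7, a mannanase gene known from endosperm weakening, rose (log2 fold change 1.62 ± 0.33, adjusted p = 0.00136). EPR1, an extensin-like gene of the endosperm, fell (log2 fold change -1.22 ± 0.13, adjusted p = 2.42e-05; -0.61 with no composition factor). The list took 0.0558%, 0.135% and 0.168% of the UMIs at 7d+24h, against 0.0307%, 0.0348% and 0.0262% at 3d. Tubulin genes, whose products form the microtubules that guide wall deposition, rose in 5 of 10 cases and fell in none (median 1.35). TUA2 stood at 70.1, 119 and 128 CPM at 7d+24h, against 18.4, 22.3 and 17.8 CPM at 3d (log2 fold change 2.44 ± 0.44, adjusted p = 0.000667). TUB4 stood at 74.3, 77.5 and 87.5 CPM at 7d+24h, against 13.5, 16.2 and 25.5 CPM at 3d (log2 fold change 2.11 ± 0.58, adjusted p = 0.00859), and TUB3 at 109, 146 and 169.9 CPM at 7d+24h, against 39.2, 43.5 and 35.0 CPM at 3d (log2 fold change 1.85 ± 0.29, adjusted p = 0.000263). TUB2, the most abundant member, stayed under the fold threshold (log2 fold change 0.94 ± 0.13, adjusted p = 0.000135). TUA2 with TUA4, and TUB2 with TUB3, are near-identical copies, so the level of a single copy is uncertain.

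Much of the rise in the summed share of the cell wall list lay in few seeds. Over the 96 seeds at 7d+24h, 13 had a larger share of their UMIs on the cell wall list than any of the 95 seeds at 3d (2, 5 and 6 seeds in libraries 1, 2 and 3). The median seed held 0.0291% at 7d+24h and 0.0288% at 3d, and the 10 highest seeds held 64.1% of the summed shares at 7d+24h and 25.7% at 3d. Other lists differed in how many seeds had moved. The translation share exceeded that of the highest 3d seed in 92 of 96 seeds, the nucleolar share in 96 and the flavonoid share in 93, and the storage share lay below that of the lowest 3d seed in 96. LEA shares lay below those of all 3d seeds in 45 seeds and heat shock shares in 14. Single genes ranged as widely, and their values also carry no composition factor. OLEO1, with a log2 fold change of -0.46, exceeded its highest 3d seed in 17 of 96 seeds and lay below its lowest 3d seed in 12. PCK1 exceeded its highest 3d seed in 96 of 96 seeds, ELF4 in 94, and F3H and MT2A in 93. CHS did so in 46, NOP56 in 40, EXPA4 in 37, RPL10B in 22, RPSAb in 19, AT2G19740 in 16, EXPA8 in 15, GASA6 in 13, EXPA9 in 12 and EXPA1 in 11.

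In the 13 seeds the translation share ran between 12.6% and 22.9%, and no other 7d+24h seed exceeded 11.7%. Their LEA share ran between 0.335% and 1.46%, and no other 7d+24h seed lay below 2.30%. Storage shares in the 13 seeds ran between 0.127% and 3.74%, which overlapped the 2.89% to 11.7% of the others, and their flavonoid shares, 0.0113% to 0.0660%, lay within or below the 0.0229% to 0.141% of the others. The 13 seeds were set apart by a measured share, so these ranges are a description without a test. Their depth was 59093 to 271922 UMIs, against 17476 to 188888 in the other 83 seeds. Within 7d+24h libraries 1, 2 and 3, depth ran with the translation share at a Spearman rho of 0.03, 0.47 and 0.41. For the cell wall share rho was -0.04, 0.16 and 0.12, and the part of depth in the shares was not tested. Within each 7d+24h library (n = 32 seeds) the translation share ran with the cell wall share at a Spearman rho of 0.53 to 0.58 and against the LEA share at -0.71 to -0.90, all shares being parts of the same UMI total.

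**Figure D4:**
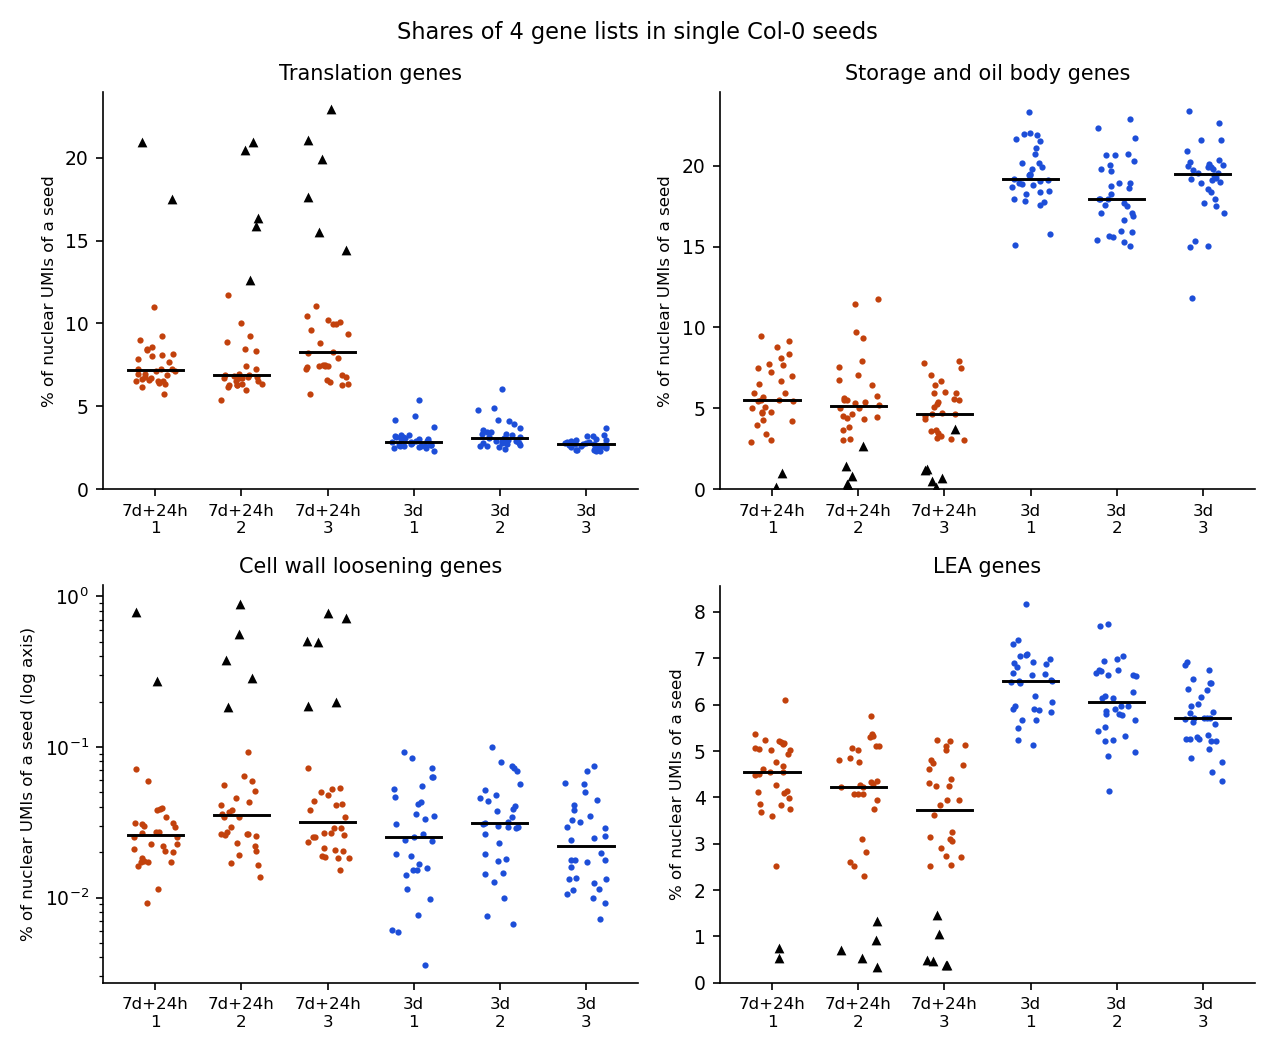
Each point is a seed, placed by library (7d+24h left, 3d right) and by the percent of its nuclear UMIs on 4 gene lists (vertical axes, log axis for the cell wall list), with bars at library medians and triangles for the 13 seeds at 7d+24h above the highest 3d seed in cell wall share. The triangles lie at the top of the translation panel and at the bottom of the LEA panel, while the medians of the cell wall panel, 0.0261% to 0.0350% at 7d+24h and 0.0219% to 0.0310% at 3d, lie close together.

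How often the level of a gene at 7d+24h lay in few seeds was counted over the 3989 genes with at least 5 UMIs per 7d+24h seed. More than 50% of the summed value of the gene lay in 10 of the 96 seeds for 29 of 685 genes that rose (4.23%), for 0 of 319 that fell and for 1 of 2985 of the others. Expansins led these 29 genes together with XTH31 (94.0% in 10 seeds): EXPA10 had 90.9%, EXPA1 88.8%, EXPA9 85.7% and EXPA2 83.3%. GASA6 (80.9%), the xylosidase gene XYL1 (72.4%), the protease gene CP1 (77.8%) and CYP83B1 (83.2%) and SOT16 (76.3%) of glucosinolate synthesis were also among them. At 3d the 10 highest seeds held 74.7% for EXPA1, 87.0% for EXPA9 and 91.0% for GASA6. There only 24, 15 and 15 of 95 seeds held any UMI of these genes, so concentration in few seeds was not particular to 7d+24h. At the other end, 239 of the 685 genes that rose were above their highest 3d seed in more than 48 of the 96 seeds. The same held for 333 of all 3989 genes and for 94 of the 2985 that neither rose nor fell. Genes that rose had been selected for higher levels at 7d+24h, so a larger count among them is partly built in.

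The same treatments of dog1-4 seeds showed how far the Col-0 change was shared by a mutant of DOG1. DOG1 stood at 0.974, 2.53 and 1.55 CPM in dog1-4 at 7d+24h, against 11.7, 6.98 and 10.4 CPM at 3d, below every Col-0 library of the same time point. From 3d to 7d+24h, 1797 genes rose (17.3%) and 1667 fell (16.1%) in dog1-4. Of the 1348 genes that rose in Col-0, 1067 also rose in dog1-4, which is 79.2% of the Col-0 list and 59.4% of the dog1-4 list. Of the 884 that fell, 763 also fell, which is 86.3% of the Col-0 list and 45.8% of the dog1-4 list. The change itself differed between the genotypes in 538 genes (5.18%), with a more negative value in dog1-4 for 436 (4.2%) and a more positive one for 102 (0.983%), and 198 of the 538 had risen or fallen in Col-0. This number rested on single libraries: it was 1230 without the third dog1-4 library at 3d, and lay between 274 and 352 without Col-0 library 1 or 2 at 7d+24h or library 2 or 3 at 3d. It was 283 and 250 without dog1-4 libraries 2 and 3 at 7d+24h.

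Among named genes the dog1-4 change ran the other way for FHL and HB-2, a homeobox gene of shade responses. FHL stood at 16.6, 17.0 and 13.6 CPM in dog1-4 at 7d+24h, against 5.85, 6.98 and 5.18 CPM at 3d, while it fell in Col-0 (log2 difference 4.53 ± 0.29, adjusted p = 1.24e-05). HB-2 stood at 17.5, 16.6 and 17.8 CPM in dog1-4 at 7d+24h, against 3.65, 7.61 and 7.40 CPM at 3d, and in Col-0 at 10.5, 16.0 and 17.1 CPM at 7d+24h, against 239, 119 and 42.7 CPM at 3d (log2 difference 4.59 ± 0.74, adjusted p = 0.00504). Both genes kept this difference under every alternative fit. The change was more negative in dog1-4 for the storage and oil body genes CRC, OLEO1 and OLEO2, with log2 differences of -1.44, -1.28 and -1.49, and for EM6 (-1.71) and LHCB4.2 (-2.59). OLEO1 and OLEO2 kept the difference in every alternative fit that held them, whereas CRC lost it in 11 of 18 and EM6 in 9 of 18. CLO1, which rose in Col-0, stood at 31.5, 26.9 and 29.1 CPM in dog1-4 at 7d+24h, against 39.5, 61.5 and 54.0 CPM at 3d (log2 difference -2.28 ± 0.26, adjusted p = 0.00201). GSTU11, AT1G65500, AT1G28400 and TI1 also differed, but the third dog1-4 library at 3d stood apart for them, with TI1 at 7.31, 10.1 and 203 CPM and AT1G28400 at 2.19, 3.80 and 40.7 CPM in the 3 libraries. Without that library none of the 4 differences passed (adjusted p = 0.123 to 0.246 for the first 3 and 0.075 for TI1). The list medians of translation (1.53 in dog1-4 and 1.05 in Col-0) and of the cell wall list (3.91 in dog1-4 and 2.96 in Col-0) are given side by side, and 4 of 357 and 1 of 13 members differed between genotypes.

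The Col-0 time course repeated the contrast in other libraries, in which 912 genes rose (8.82%) and 1233 fell (11.9%) from 3d to 7d+24h. Of the 1342 genes that rose in the Col-0 seeds described here and were tested there, 620 also rose, 46.2% of this list and 68.0% of that of the time course. Of 880 that fell, 443 also fell, 50.3% of this list and 35.9% of that of the time course. A further 63 rose here and fell in the time course, and none did the reverse. The changes of the experiments differed in 1134 of 10342 genes (11.0%), more positive here in 993 (9.6%) and more negative in 141 (1.36%). UMIs outside nuclear protein-coding genes made up 20.8% to 24.4% of the time-course libraries at 7d+24h and 62.0% to 73.1% at 3d. In all 6 libraries here they made up 12.4% to 13.9%, and the part of this in the differences was not tested.

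The time course also holds the 7d step that the present contrast lacks. UMIs outside nuclear protein-coding genes made up 25.7% to 31.5% of its 7d libraries, against 62.0% to 73.1% at 3d. The part of this in the step from 3d to 7d was not tested. Over all 10342 genes tested there, 10.0% were higher and 7.6% lower at 7d+24h than at 7d, and 2.06% were higher and 9.68% lower at 7d than at 3d. Of the genes that rose here, 746 were higher and 1 was lower at 7d+24h than at 7d (median 1.09), while 52 were higher and 234 lower at 7d than at 3d (median -0.09). Of the genes that fell here, 4 were higher and 455 lower at 7d+24h than at 7d (median -1.03), and 22 were higher and 118 lower at 7d than at 3d (median 0.06). F3H stood at 8.63, 3.05 and 8.68 CPM at 3d, 2.68, 5.73 and 2.74 CPM at 7d and 154, 182 and 138 CPM at 7d+24h of the time course, so that its level was high at 7d+24h alone. PCK1 stood at 188, 251 and 382 CPM at 3d, 572, 553 and 559.9 CPM at 7d and 922, 1067 and 898 CPM at 7d+24h. EXPA8 stood at 38.0, 21.3 and 28.2 CPM at 3d, 1.34, 5.73 and 3.08 CPM at 7d and 24.2, 15.5 and 7.95 CPM at 7d+24h.

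DOG1 did not pass from 3d to 7d+24h in the time course (log2 fold change -0.42, adjusted p = 0.176), where it stood at 41.4, 41.1 and 44.8 CPM at 3d, 16.8, 16.1 and 17.1 CPM at 7d and 19.5, 31.1 and 45.5 CPM at 7d+24h (log2 difference -2.08 ± 0.47, adjusted p = 0.00781). There the 7d libraries lay lowest, and the 7d+24h libraries overlapped those at 3d. ELIP1, which rose here, stood at 7.41, 7.44 and 4.66 CPM at 7d+24h, against 197, 158 and 111 CPM at 3d (log2 difference 8.71 ± 0.34, adjusted p = 1.48e-09). NIP5;1, a boron channel gene, stood at 44.4, 17.5 and 19.7 CPM at 7d+24h, against 454, 317 and 235 CPM at 3d, and here at 41.4, 89.1 and 128 CPM at 7d+24h, against 7.97, 13.9 and 3.56 CPM at 3d (log2 difference 6.96 ± 0.67, adjusted p = 1.25e-05). TBL37 stood at 10.6, 10.7 and 10.1 CPM at 7d+24h, against 216, 151 and 78.8 CPM at 3d, in the time course, and here at 24.9, 33.6 and 39.4 CPM at 7d+24h, against 2.45, 5.02 and 4.15 CPM at 3d (log2 difference 6.86 ± 0.50, adjusted p = 1.26e-06). In these 3 genes the 3d level was high in the time course and low here. XTH11, a xyloglucan-modifying enzyme gene, stood at 228, 303 and 216 CPM at 7d+24h, against 294, 382 and 305 CPM at 3d, in the time course, and fell here to 58.3, 44.8 and 34.7 CPM at 7d+24h, against 495, 465 and 447 CPM at 3d (log2 difference -2.91 ± 0.25, adjusted p = 6.06e-06). ACS4 fell in both experiments, to 3.70, 2.91 and 3.56 CPM at 7d+24h, against 77.7, 71.6 and 45.5 CPM at 3d, in the time course. The list medians in the time course were 1.11 for translation, 2.18 for the flavonoid pathway, -2.65 for storage and 0.26 for cell wall loosening, and 4 of the 13 cell wall members and 13 of the 357 translation genes differed between the experiments.

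**Figure D5:**
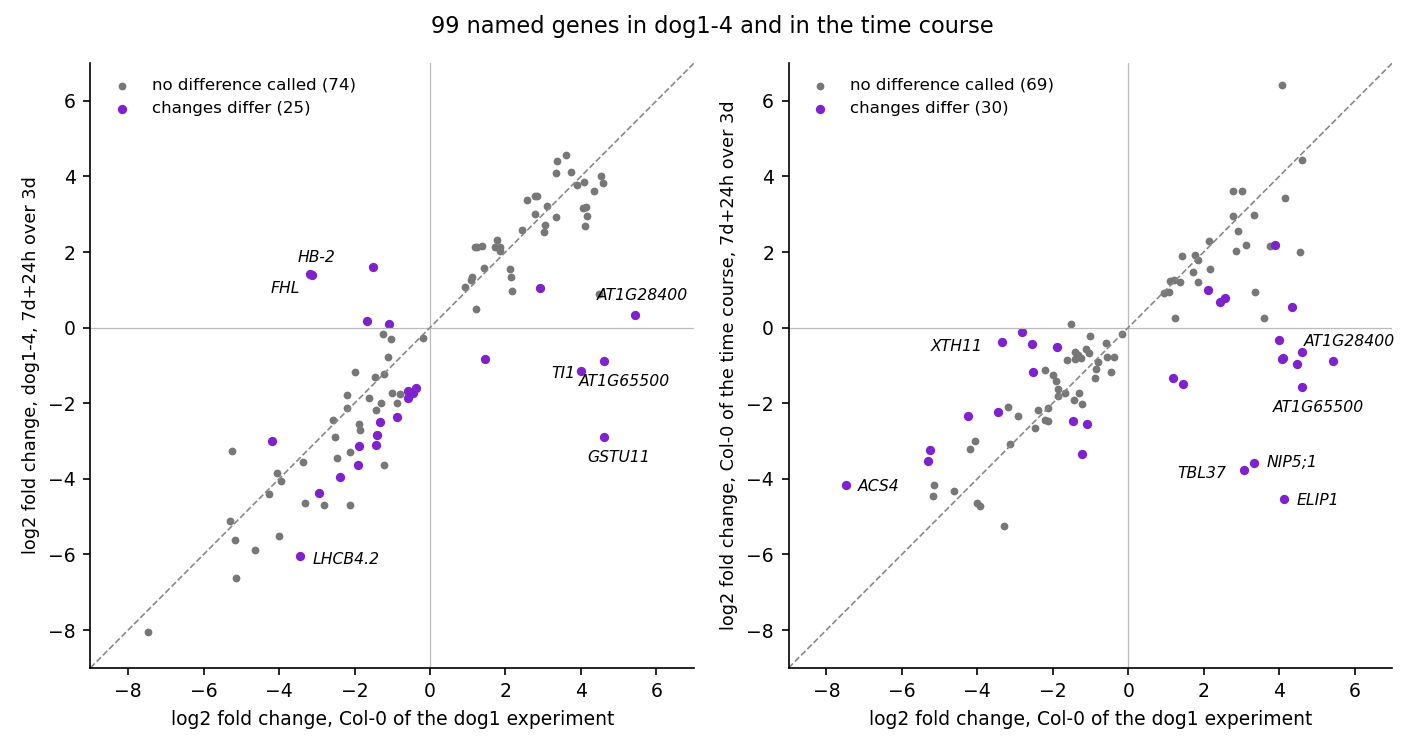
The log2 fold change from 3d to 7d+24h of the 99 genes chosen by the naming rule in dog1-4 (left panel, vertical axis) and in the Col-0 time course (right panel) is plotted against that in the Col-0 seeds described here (horizontal axes), with genes whose changes differ in purple (25 on the left, 30 on the right). FHL and HB-2 lie in the upper left of the left panel, and ELIP1, NIP5;1 and TBL37 in the lower right of the right panel.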

How the data were processed

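Single seeds were crushed, and 3′ ends of their polyadenylated RNA were sequenced with seed barcodes and UMIs. The authors removed poly(A) stretches, aligned reads to TAIR10 (Araport11 genes) by STAR 2.7.8a and counted UMIs of unique, sense-strand alignments. The deposited values are therefore raw counts per gene and seed. Near-identical copies lose shared reads by this rule. UMI-tools 1.1.0 and HTSeq 0.11.3 also stand in the submitters' processing notes.

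UMIs of kept seeds (31 or 32 of the 32 in a library) were summed. No seed columns were identical (0 found), and replicate libraries differed beyond sampling noise (chi-square per degree of freedom 2.09 to 10.9). The sums were scaled by TMM and fitted in edgeR 4.0.16 under R 4.3.3 (quasi-likelihood, Benjamini-Hochberg adjustment), with the 12 libraries of the experiment together, and standard errors were taken as |log2 fold change| divided by √F. Differences between genotypes or experiments were tested as interactions, those between experiments in a fit of the 12 Col-0 libraries of both. Same-numbered Col-0 libraries deviated together from their group means (r = 0.348, 0.120 and 0.208 over genes), so the replicate number of the labels served as a block in an alternative fit. The pipeline was tested on simulated data. Motifs were searched on both strands of 10373 promoters of TAIR10.1.

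The comparison and the 20 gene lists were chosen with earlier results of these data known. Genes named by rule were the 10 largest rises and falls without overlap, per list up to 3 rises and 3 falls and the most abundant member where it did not pass, DOG1, tissue markers, and the 3 highest and 3 lowest differences of each interaction. Other list members, and genes concentrated in few seeds, were named as examples after their values were seen. Alternatives covered gene and seed filters, thinning to 5000 UMIs per seed, DESeq2, the block and left-out libraries. A filter on gene shares, library totals without a composition factor, and leaving out dog1-4 or time-course libraries were added after seeing the data. Dry seed pools, pool-split controls and other time points were not used here.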

Additional observations from a re-analysis of the deposited data

Results flagged for a closer look

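By the interaction test, 25 named genes changed differently from 3d to 7d+24h in dog1-4 than in Col-0. The log2 difference, dog1-4 minus Col-0, was negative for AT1G65500 (-5.50), GSTU11 (-7.52), AT1G28400 (-5.08), ABF4 (-1.16), DRM1 (-1.09), LHCB4.2 (-2.59), CAO (-1.44), CLO1 (-2.28), EM6 (-1.71), PIP1;4 (-1.87), BETA-TIP (-1.55), MT4B (-1.25), AT1G08170 (-1.68), HIS1-3 (-1.22), CRC (-1.44), OLEO1 (-1.28), OLEO2 (-1.49), PER1 (-1.28) and TI1 (-5.15). It was positive for AT3G45730 (1.19), CYP707A2 (1.18), GA2OX2 (1.85), FHL (4.53), AT5G51190 (3.12) and HB-2 (4.59). Without the third dog1-4 library at 3d the differences of GSTU11, AT1G65500, AT1G28400, TI1 and AT3G45730 no longer passed, and FHL, HB-2, OLEO1, OLEO2, PER1 and HIS1-3 passed under all alternatives that gave them a value. Several others no longer passed in many alternatives: MT4B and AT3G45730 in 12 of 18, CRC in 11 of 18, EM6 and BETA-TIP in 9 of 18, PIP1;4 in 11, ABF4 in 10, AT1G65500 and TI1 in 9, AT1G28400 in 8 and DRM1 in 6 of 17.

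Between the Col-0 seeds of this experiment and those of the time course, 30 named genes changed differently. The log2 difference, this experiment minus the time course, was positive for AT5G55050 (4.98), ELIP1 (8.71), AT1G12805 (3.85), EXPA4 (5.49), AT1G65500 (6.22), GSTU11 (5.29), AT1G28400 (6.36), CYP707A2 (1.50), TT7 (1.75), CLO1 (3.00), AT3G02480 (2.57), EXPA8 (4.98), EPR1 (2.18), CYS2 (1.06), RPSAb (1.83), TUB4 (1.16), TUA2 (1.81), TI1 (4.38), TBL37 (6.86) and NIP5;1 (6.96). It was negative for ACS4 (-3.25), AT1G72060 (-1.72), AT3G55240 (-1.92), GASA1 (-1.84), DOG1 (-2.08), LNK2 (-1.30), LHCB4.2 (-1.17), CAT3 (-1.33), XTH11 (-2.91) and AT1G51400 (-2.62). The differences of AT3G55240 (12 of 19), LHCB4.2 (11 of 19), CYP707A2 (10 of 17), TT7 (7 of 18) and CYS2 (6 of 18) no longer passed in many alternatives. TT7 and RPSAb turned negative, without passing, when every seed was thinned to 5000 UMIs.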

How the results depend on the processing

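Counts of genes that rose (1348) and fell (884) stayed within 1.5 times under protein-coding genes alone, no seed filter, DESeq2 and its size factors, Col-0 libraries alone and the filter on shares. The stricter seed filter of 10000 UMIs removed none of the kept seeds of this experiment, so it could not change these counts. Keeping only the 595 genes whose counts had a correlation of at most 0.3 with unspecific UMIs left 101 that rose and 56 that fell, with 76 genotype and 85 experiment differences. These 595 genes had a median log2 fold change of -1.52 in the fit of all genes and of 0.10 when fitted alone, since TMM then centres on them. With filterByExpr 2114 rose and 1439 fell, with no gene filter 2472 rose and 1240 fell, with no minimum fold 2759 rose and 2651 fell, and with no composition factor 3172 rose and 278 fell. Thinning every seed to 5000 UMIs left 643 genes that rose, 560 that fell, 95 genotype and 141 experiment differences, at the lower depth that the setting makes. Leaving out 1 Col-0 library gave 1178 to 1470 genes that rose and 799 to 1024 that fell. Over Col-0 and dog1-4 libraries left out, genotype differences ranged from 250 to 1230, and over Col-0 and time-course libraries, experiment differences ranged from 973 to 1206. The translation difference ranged from 5.83 to 7.38 percentage points. The cause of these moves was not tested unless named.

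With the replicate block 1354 genes rose and 895 fell, 728 changes differed between genotypes and 1216 between experiments, and the translation difference stayed at 6.64 (p = 0.25 in an exact paired permutation test, the smallest 3 pairs allow). Of 99 genes named by rule only LHCB4.1 changed its call (-1.21, adjusted p = 0.0454). Under the correlation filter EPR1 (0.40, adjusted p = 0.0757) and AT5G51190 (0.16, adjusted p = 0.869) turned positive without passing, as did the list members ASN1 (0.016), HSP17.6A (0.21) and HSP22.0 (0.59), and PCO2 of oxygen sensing turned to 1.17 (adjusted p = 0.00836). Of 39 genes named by rule that it kept, 16 others lost their call: DOG1, GA20OX3, GA2OX2, DIN2, SEN1, PHYA, LNK2, EM6, HSP17.4, HSP23.6-MITO, HSP90.1, BETA-TIP, CAT3, MT4B, CRA1 and AT1G51400. Among genes named by rule, calls lost without a single Col-0 library were those of ABI1, HAI2, CYP707A2, GASA6, ERF72, AT3G02480, ACX1, MT2B, APX1 and AT5G51190, and among other list members those of CSD1, HSP22.0, HSP101, PHYB, PRR5 and TUB7. TUB7, a tubulin gene, also turned negative with seeds thinned to 5000 UMIs (-1.39, adjusted p = 0.526). With no composition factor 13 genes named by rule that fell lost their call, and TUB2 (1.55) gained one. With seeds thinned to 5000 UMIs, 13 genes named by rule lost their call: ABI1, ABI4, ABF4, CYP707A2, RGL3, ERF72, DIN2, ACX1, APX1, RPL10B, AT5G51190, TBL37 and AT1G51400. TUB2 (1.50) gained one there too.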
